A study of Rattus norvegicus with 6 samples.

Results

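The 7SK gene copies of the rat are the rows of the deposited gene table whose gene name is exactly 7SK or Rn7sk, each kept apart by its Ensembl gene identifier. Of 32883 rows, 424 carried the name 7SK and 0 carried the name Rn7sk. GH4C1, the source of the RNA, is an established pituitary line that makes growth hormone and prolactin. All 6 libraries were made from wild-type cells treated with psoralen, which crosslinks base-paired nucleic acid strands, and RNA was then pulled down with oligo pool A (3 libraries, A1 to A3) or oligo pool B (3 libraries, B1 to B3). The stated aim was to find RNAs in direct contact with the long noncoding RNA Neat1, and libraries were strand-specific with paired reads of 150 bases. The labels give neither the sequences of the pools nor whether either pool was a control, and neither input RNA nor cells without psoralen were analysed here. A level below is therefore a level in pulled-down RNA, and how much of a difference between pools came from capture or from abundance in the cells cannot be told apart. The labels also do not say that the libraries came from separate cultures, so p-values measure the spread between these libraries, which may be technical.

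7SK is an abundant nuclear RNA made by RNA polymerase III. It is the scaffold of a particle in which Mepce caps its 5′ end, Larp7 holds its 3′ end, and Hexim1 or Hexim2 keeps the kinase P-TEFb (Cdk9 with cyclin T) inactive. When P-TEFb leaves the particle it phosphorylates RNA polymerase II and its pausing factors and lets transcripts elongate, while proteins such as hnRNP A1 occupy the freed 7SK RNA. Mammalian genomes also carry many 7SK-derived repeats, most of which are taken to be pseudogenes. Copies are named below by the last 5 digits of their identifier, and since near-identical copies can share reads, the split of counts between copies is uncertain wherever the counting scheme is unstated, as it is here.

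Total counts per library ranged from 1826390 to 3685899, so a count of 0 allows up to 3 counts, or 0.814 to 1.64 CPM (a gene's count over its library's total, times 1e6). The line's own markers were present in every library, with Prl at 386 to 759 CPM, Gh1 at 149 to 187 CPM and Pou1f1 at 139 to 227 CPM. Prl had 680 to 759 CPM with pool A and 386 to 498 CPM with pool B, Pou1f1 went the other way with 139 to 167 CPM against 167 to 227 CPM, and Gh1 overlapped. Of 4 markers of other pituitary lineages, Fshb and Tshb had no count and Pomc had at most 11, while the gonadotroph marker Lhb had 9.10 to 16.0 CPM with pool A and 40.0 to 45.0 CPM with pool B. The summed level of these 4 was 9.10 to 19.4 CPM against 40.9 to 45.0 CPM, so markers moved with the pools, and their part in the 7SK results was not tested. Across the whole table, 11582 genes were tested, and edgeR's quasi-likelihood test called 40.6% of them at a threshold of 0.05 on the adjusted p, with 18.6% higher in pool A libraries and 22.0% in those of pool B. That share is the background against which counts of 7SK copies are read.

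The 424 copies fell into a silent majority, a sparse middle and a small abundant set. No count in any library was found for 306 copies, and 118 copies had at least 1. Of these, 59 had 1 to 9 counts summed over the 6 libraries, 45 had 10 to 99, 4 had 100 or more but under 500, and 10 had at least 500. A count in all 6 libraries was found for 27 copies, and 12 copies had at least 10 counts in each. The number of copies with at least 1 count was 63, 74 and 56 in libraries A1 to A3 and 72, 55 and 56 in B1 to B3. The deepest library did not show the most copies, and the ranges of the pools overlapped. With at least 10 counts required, 26, 19 and 28 copies were seen with pool A and 26, 16 and 22 with pool B.

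A single copy dominated the family. ENSRNOG00000058555 (copy 58555) held 60.4% of the 53612 counts of all copies, the copies ranked 2 to 10 held 34.6%, and the remaining 414 held 5.01%. Those 10 copies span 776 to 32381 summed counts, and the next copy in rank had 290, so a limit of 500 summed counts, chosen after the counts were seen, separates them from the rest. They are called abundant copies below. In the table, copy 58555 follows Ick, a kinase gene, and comes before Gsta4, a glutathione S-transferase gene. The clone-named row AABR07070810.1, with 30 counts, stands between the copy and Gsta4. RefSeq's GRCr8 annotation places Ick (under its newer symbol Cilk1) and Gsta4 on the same chromosome with 0 protein-coding genes between them. As background, the 7SK genes of human and mouse lie between the same neighbours. RefSeq symbols matched no 7SK gene, so the name of the functional gene was not taken from that list.

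Summed over all copies, 7SK was higher with pool A in these libraries. The summed counts were 13598, 7460 and 13377 with pool A and 6877, 4884 and 7416 with pool B. Scaled to library totals, these were 3689, 2950 and 4196 CPM with pool A and 2344, 2674 and 2806 CPM with pool B. Every pool A library lay above every pool B library, although the lowest of pool A and the highest of pool B were close. The means were 3612 ± 627 CPM and 2608 ± 238 CPM (SD, n = 3 each), a ratio of 1.39, and 49.1% of all tested genes also had pool ranges that did not overlap. On library sizes rescaled by TMM, edgeR's trimmed mean of M-values, the ratio was 1.52. A sum over members was not tested. 7SK RNA made up 0.295% to 0.420% of all counts with pool A and 0.234% to 0.281% with pool B.

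The larger part of that difference lay outside the dominant copy. Its counts were 7728, 4304 and 7853 with pool A and 4110, 3638 and 4748 with pool B. In CPM these were 2097, 1702 and 2464 against 1401, 1992 and 1796, so the pools overlapped on total counts, while on TMM library sizes the ranges were 1902 to 2450 and 1346 to 1885 and did not. All other copies together had 1593, 1248 and 1733 CPM with pool A and 943, 682 and 1009 CPM with pool B, with no overlap. The ratio of pool means was 1.21 for the dominant copy and 1.74 for the rest of the family.

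**Figure D1:**
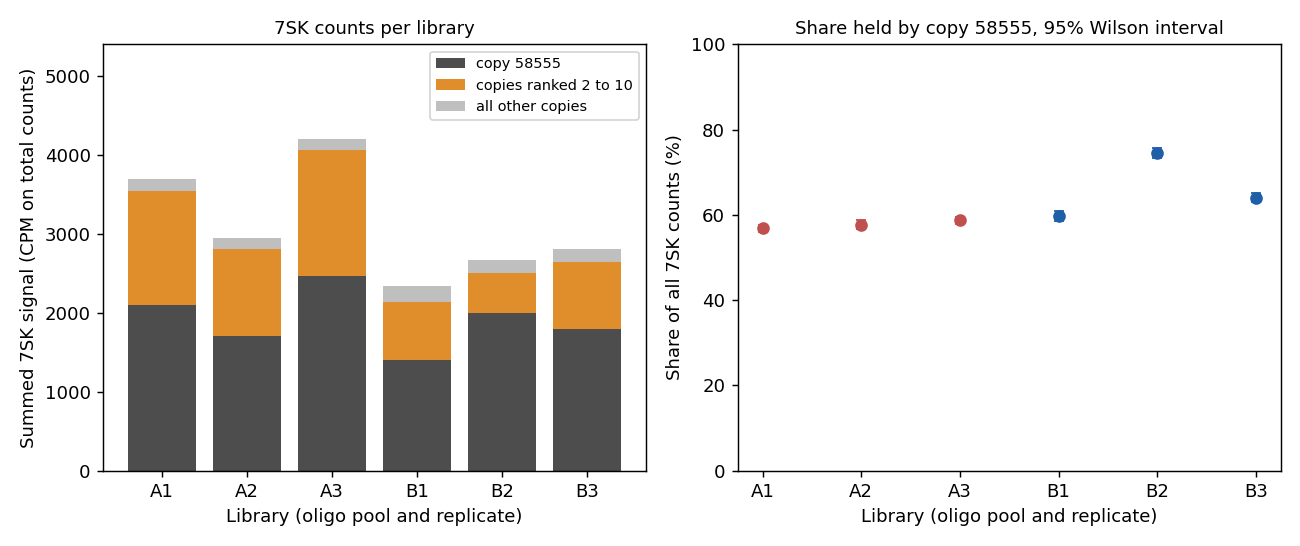
Left, summed 7SK level in each library (CPM on total counts), stacked as copy 58555, the copies ranked 2 to 10 and all other copies. Right, the percent of all 7SK counts held by copy 58555, with 95% Wilson intervals; it was 56.8% to 58.7% in the pool A libraries and 59.8% to 74.5% in those of pool B.

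Copy 58555 held a smaller and less variable share of the family with pool A than with pool B. It held 56.8%, 57.7% and 58.7% of 7SK counts in libraries A1 to A3 and 59.8%, 74.5% and 64.0% in B1 to B3. The means were 57.7% ± 0.94 and 66.1% ± 7.58 (SD, n = 3 each), and the ranges did not overlap. The closest libraries, A3 and B1, had overlapping 95% Wilson intervals, at 57.9% to 59.5% and 58.6% to 60.9%. Pool B replicate 2 stood apart, with a 95% Wilson interval of 73.2% to 75.7%, and without it the pool B mean was 61.9%. These intervals cover counting error only, as no molecular identifiers are stated.

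The copies ranked 2 to 10 held a larger share with pool A. They held 39.3%, 37.6% and 37.9% of 7SK counts with pool A and 31.5%, 18.9% and 30.0% with pool B. Everything below rank 10 went the other way in share, at 3.84%, 4.71% and 3.35% with pool A and 8.70%, 6.61% and 6.01% with pool B. For each count in copy 58555, the other copies had 0.760, 0.733 and 0.703 counts with pool A and 0.673, 0.342 and 0.562 with pool B. The second copy held 0.142, 0.0624 and 0.0931 counts per count of the first in B1 to B3, against 0.168 to 0.199 in the pool A libraries.

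Of the 424 copies, 24 passed edgeR's filter on low counts and were tested, and they held 97.9% of all 7SK counts. The filter asks for about 3.59 CPM in 3 libraries. The level was reached in all 3 libraries of both pools by 12 copies, in all 3 of pool A alone by 4, in all 3 of pool B alone by 5, and in a mixture of libraries by 3. Passing through 1 pool favours copies that differ, so the total over the tested copies is a description only. Higher levels with pool A were called for 11 copies and with pool B for 5, while 8 did not pass. The median log2 fold change of the 24 copies, pool A over pool B, was 0.49, against 0.02 over all 11582 genes.

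The abundant copies all reached the filter level in every library. Of the 10, 8 were called as higher with pool A and 0 in the other direction. The limit of 500 summed counts was set after the counts were seen and can be met through 1 pool. Called copies 53909, 55947, 58301 and 56755 had 953, 885, 727 and 614 counts with pool A. With pool B they had 243, 326, 288 and 162, each below that limit. Copies 58555, 59651, 60289 and 56247 exceeded it with either pool alone. This tally and the median below may therefore partly follow from how the set was cut. The background for genes of 500 or more summed counts was 32.9% higher with pool B and 27.0% with pool A. The median log2 fold change of the abundant copies was 1.11, against -0.04 over the 5272 genes of that depth. Pool ranges in CPM did not overlap for 7 of the 10, beside 49.1% of all 11582 tested genes. That share was not computed for genes of this depth alone.

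Copy 58555 itself had the smallest change among the abundant copies that passed. The fitted log2 fold change was 0.41 ± 0.15 (SE) and edgeR's adjusted p 0.0257. With scaling to total counts the value was 0.27 and the adjusted p 0.186. Leaving out a library also ended the call in 4 cases, with edgeR's adjusted p at 0.0555 without A1 (0.40), 0.0763 without A3 (0.35), 0.203 without B1 (0.28) and 0.0587 without B3 (0.45), log2 fold changes in parentheses. Over all alternatives the adjusted p ranged from 0.00528 to 0.203. The call thus depended on the scaling and on which libraries were kept.

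The copies ranked 2 to 4 differed more. ENSRNOG00000059651 (copy 59651) had 1472, 722 and 1562 counts with pool A and 585, 227 and 442 with pool B. In CPM it stood at 399, 286 and 490 against 199, 124 and 167, so all pool A libraries were above all of pool B. The fit gave a log2 fold change of 1.39 ± 0.17 (SE, edgeR adjusted p = 1.24e-07).

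ENSRNOG00000060289 (copy 60289) had 421, 292 and 367 CPM with pool A and 167, 76.1 and 285 CPM with pool B. The closest libraries, A2 and B3, were nearly level, while B2 was far below. The log2 fold change was 1.16 ± 0.25 (SE, edgeR adjusted p = 0.000423). DESeq2's Wald test did not call it (1.18, adjusted p = 0.0706), the highest of its alternatives, which began at 4.60e-14. Neither adjacent row in the table, LOC685699 or Shroom2, had a count in any library.

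ENSRNOG00000056247 (copy 56247), which lies between Fem1c and Ticam2, had 172, 166 and 192 CPM with pool A and 117, 60.8 and 102 CPM with pool B. No pool B library reached the level of A1 to A3. The fit gave a log2 fold change of 1.05 ± 0.18 (SE, edgeR adjusted p = 2.74e-05).

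Among the copies ranked 5 to 10, 4 were higher with pool A. ENSRNOG00000055947 (copy 55947) had 104, 70.8 and 102 CPM against 37.2, 55.3 and 43.9 CPM, with a log2 fold change of 1.17 ± 0.20 (SE, edgeR adjusted p = 2.03e-05). ENSRNOG00000053909 (copy 53909) had 99.3, 85.0 and 117 CPM against 41.9, 8.76 and 39.3 CPM, with a log2 fold change of 1.83 ± 0.29 (SE, edgeR adjusted p = 7.37e-06). The low B2 recurred here, and without it the log2 fold change was 1.43.

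ENSRNOG00000058301 (copy 58301) had 76.0, 59.3 and 93.2 CPM with pool A and 30.0, 49.3 and 41.6 CPM with pool B, for a fitted log2 fold change of 1.07 ± 0.21 (SE, edgeR adjusted p = 0.000158). ENSRNOG00000056755 (copy 56755) had 61.6, 40.3 and 89.4 CPM against 20.1, 24.1 and 22.3 CPM, for one of 1.66 ± 0.25 (SE, edgeR adjusted p = 3.97e-06). In both copies the pools were apart, and A3 was the highest library.

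Of the abundant copies, 2 did not pass. ENSRNOG00000057547 (copy 57547) had 60.5, 60.1 and 63.4 CPM with pool A and 91.0, 52.6 and 80.6 CPM with pool B, and a fitted log2 fold change of -0.15 ± 0.20 (SE, edgeR adjusted p = 0.58). ENSRNOG00000053752 (copy 53752) had 57.8, 50.2 and 79.1 CPM against 35.8, 54.2 and 58.6 CPM, and one of 0.48 ± 0.22 (SE, edgeR adjusted p = 0.0804). With upper-quartile scaling the latter passed (0.58, edgeR adjusted p = 0.0313, over a range of 0.0313 to 0.356). For both copies the pools overlapped.

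**Figure D2:**
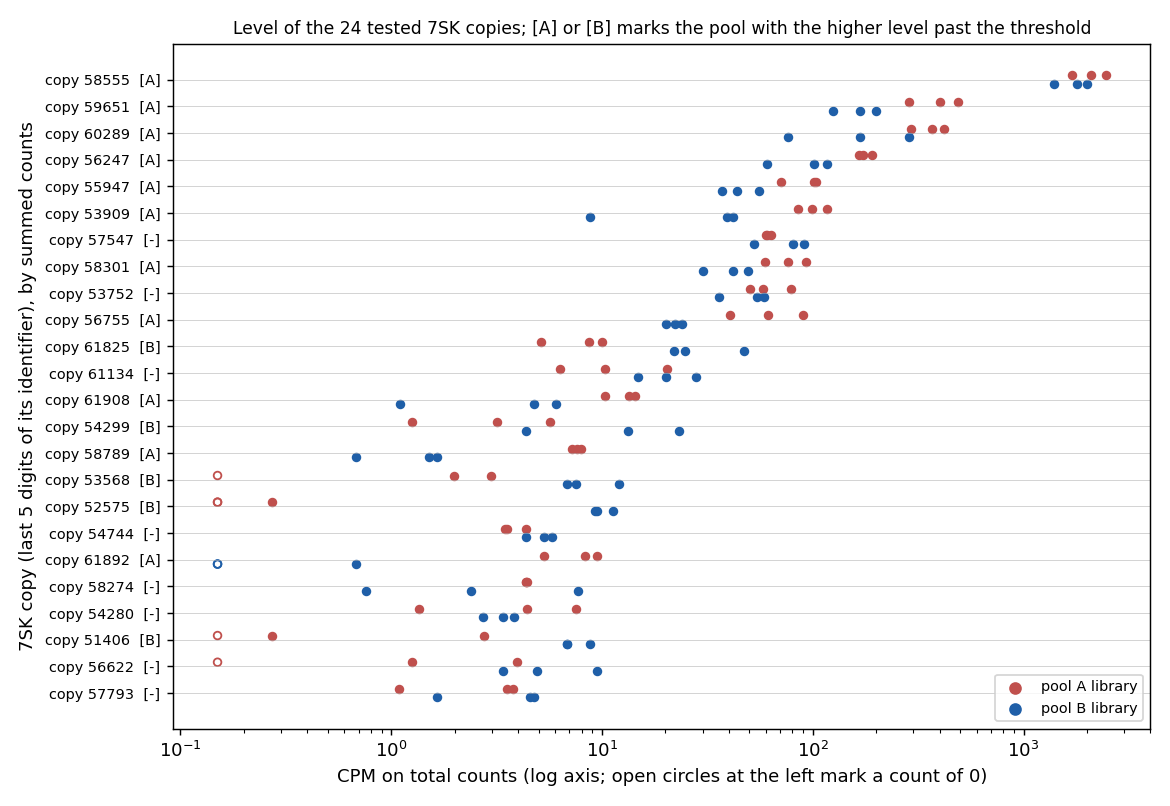
CPM of the 24 tested 7SK copies in each library (log axis), pool A in red and pool B in blue, ordered by summed counts; open circles mark a count of 0, and [A] or [B] marks the pool with the higher level among copies past the threshold. All 8 called copies of the top 10 lie higher with pool A, while the called copies below them go in both directions.

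The 14 tested copies with 54 to 290 summed counts went in both directions. With pool A 3 were higher, with pool B 5 were higher, and 6 did not pass; the background for genes under 500 summed counts was 11.6% and 12.9%. Their median log2 fold change was -0.48, against 0.06 over all tested genes of that depth. Of these copies, 12 did not reach the filter level in every library, so the calls partly follow from how they passed.

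On the pool B side, ENSRNOG00000061825 (copy 61825) had 19, 22 and 32 counts with pool A and 73, 86 and 58 with pool B. It reached the filter level in all 6 libraries, and its pools did not overlap. The fit gave a log2 fold change of -1.82 ± 0.37 (SE, edgeR adjusted p = 0.000219). ENSRNOG00000052575 (copy 52575) had 1, 0 and 0 counts with pool A and 33, 17 and 25 with pool B. On counts and totals pooled over the libraries of each pool, its ratio of CPM was 95.2, pool B over pool A. The 95% counting interval of 16.6 to 3812 leaves out the spread between libraries. In edgeR the adjusted p of copy 52575 was 1.21e-05. Its fitted log2 fold change, which depends on the prior count, went from -5.95 to -7.67 without A1, the only pool A library with a count.

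The other 3 copies called higher with pool B were less firm. ENSRNOG00000054299 (copy 54299) had 21, 8 and 4 counts with pool A and 39, 8 and 61 with pool B, with a fitted log2 fold change of -1.85 ± 0.60 (SE, edgeR adjusted p = 0.0151). Its libraries overlapped, and the call was lost without A2 (-1.79), A3 (-1.41) or B3 (-1.24), while without A1 the value was -2.51 with the call kept. The adjusted p without B3 was the highest over its alternatives (edgeR adjusted p = 0.205), which began at 0.00243. ENSRNOG00000053568 (copy 53568) had 11, 5 and 0 counts against 20, 22 and 20, with one of -2.19 ± 0.76 (SE, edgeR adjusted p = 0.0216).

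For copy 53568 the pools did not overlap, yet the call was lost without A2 (-2.29), A3 (-1.56), B2 (-1.93) or B3 (-2.28), with edgeR's adjusted p at most 0.106, while without A1 the value was -3.02 and the call was kept (edgeR adjusted p = 0.0191). ENSRNOG00000051406 (copy 51406) had 1, 7 and 0 counts with pool A and 20, 16 and 18 with pool B, and a fitted log2 fold change of -2.81 ± 0.86 (SE, edgeR adjusted p = 0.0101). Its call was lost without A1 (-2.30) or A3 (-2.16), and without A2, the library with 7 counts, the value was -5.18.

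On the pool A side, ENSRNOG00000061892 (copy 61892) had 35, 21 and 17 counts with pool A and 2, 0 and 0 with pool B. On counts and totals pooled over the libraries of each pool, its ratio of CPM was 28.7, pool A over pool B. The 95% counting interval of 7.68 to 242 leaves out the spread between libraries. In edgeR the adjusted p of copy 61892 was 0.000152. The pool B counts come from B1 alone, and without it the fitted log2 fold change went from 4.79 to 7.49, with pool B at 0 and the value set by the prior count. ENSRNOG00000058789 (copy 58789) had 28, 20 and 23 counts against 2, 3 and 4, with a log2 fold change of 2.71 ± 0.71 (SE, edgeR adjusted p = 0.00274). Both copies had few counts with pool B, and their pools did not overlap.

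ENSRNOG00000061908 (copy 61908) had 53, 34 and 33 counts with pool A and 14, 2 and 16 with pool B, for a fitted log2 fold change of 1.76 ± 0.53 (SE, edgeR adjusted p = 0.00915). Pool A libraries were all above those of pool B. The 8 tested copies that did not pass, abundant or sparse, had log2 fold changes from -1.70 to 0.54 with SEs of 0.20 to 0.84 and edgeR adjusted p-values from 0.0804 to 0.776. The largest of these SEs belong to the sparse copies. Leaving out a library brought copy 56622 past the threshold without A2 (-3.11, from -1.70, edgeR adjusted p = 0.0384, over a range of 0.0384 to 0.457) and copy 61134 without A3 (-1.12, from -0.64, edgeR adjusted p = 0.0387, over a range of 0.0387 to 0.549). Copy 58274 did not pass in any refit and moved from 0.51 to 1.56 without B2 and to 0.0023 without B3.

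Of the 400 copies that were not tested, 94 had a count and the highest had 65 counts summed. Among them, 7 had at least 10 counts with 1 pool and 0 with the other. ENSRNOG00000055376 had 13, 5 and 14 counts with pool A and 0 with pool B. With pool B set to a floor of 3 counts over the group, it was at least 8.40-fold higher, and at least 7.15-fold without A3. Such bounds leave out the counting error of the higher pool. ENSRNOG00000061503 had 16, 2 and 5 counts with pool B and 0 with pool A, at least 9.74-fold higher, and at least 4.91-fold without B1. With pool A only, ENSRNOG00000053066 had 6, 2 and 10 counts and ENSRNOG00000058928 had 0, 6 and 4. With pool B only, ENSRNOG00000058749 had 4, 2 and 5 counts, ENSRNOG00000052042 had 20, 2 and 0, and ENSRNOG00000059596 had 16, 1 and 0. The last 2 rest on B1, without which 2 counts and 1 count are left, below the floor. These copies were chosen after their counts were seen, and their differences were not tested.

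Copies inside or beside other genes may share reads with them, so each tested copy was set against the rows next to it in the table. For 8 of the 10 abundant copies both nearest tested rows matched a RefSeq gene, and GRCr8 placed each such pair on 1 chromosome with 0 to 9 protein-coding genes between them, the most for Ncoa1 and Ubxn2a around copy 57547. For copies 60289 and 53752 a clone-named row had no match, so adjacency rests on table order alone. Of the 10 abundant copies, 9 had more counts than the larger of the adjacent rows, with a median ratio of 9.87. The exception was copy 57547, with 1153 counts beside Ncoa1, a nuclear receptor coactivator gene with 10029. Copy 58555 had 131 times the counts of Ick, the larger of its adjacent rows. Of the 14 sparser copies, 12 had an adjacent row with more counts, and the median ratio was 0.12. The exceptions were copies 61134 and 54744.

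The directions of the neighbours were tallied as a description. Of the 8 called sparse copies, 5 had a nearest tested row, before or after, that was called in the same direction, and 0 had one called in the opposite direction. Of those 5, copies 52575, 51406, 61892 and 58789 reached the filter level only in the pool where they were high, so their direction is partly set by the filter; copy 61825 reached it in all 6 libraries. Of the 8 called abundant copies, 0 had such a row in the same direction and 1 in the opposite direction. Over all called genes, the share with a called neighbour of the same direction was 41.2% under 500 summed counts and 41.7% at 500 or more, and with one of the opposite direction 33.6% and 33.1%. No difference between the sets of copies is drawn from these small numbers.

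The abundant copy with opposite neighbours was the dominant copy 58555. Ick stood at -2.06 ± 0.38 (SE, log2 fold change) and Gsta4 at -1.32 ± 0.31 (SE), both higher with pool B, against 0.41 for the copy between them. Among sparse copies, copy 52575 followed Sptb, a spectrin gene with 11376 counts and a log2 fold change of -1.65, and copy 61825 followed Gtpbp1 (-0.76). Copy 51406 followed Osbpl1a (-2.05), copy 61892 followed Tmem39a (1.69), and copy 58789 followed Clk4 (2.10), a splicing kinase gene. The nearest tested row after copy 58789 was Hnrnpab (4.60). Whether reads of these genes were counted in the copies was not tested.

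**Figure D3:**
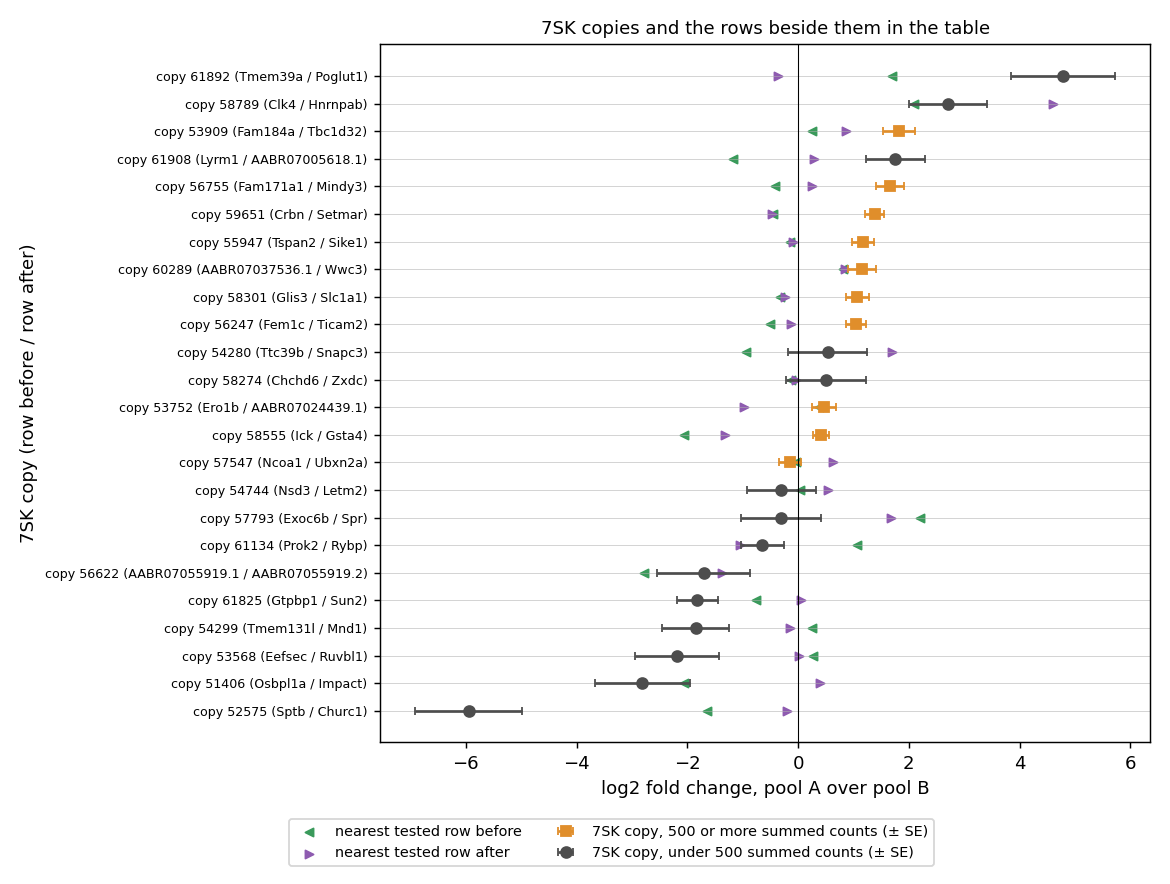
Log2 fold change (pool A over pool B) of the 24 tested 7SK copies, with SE, beside that of the nearest tested rows before and after each in the table. Orange squares are the copies with 500 or more summed counts, of which 8 lie to the right and passed while their neighbours lie nearer 0 or to the left; of the 8 called sparse copies in dark grey, 5 share their direction with a called neighbour.

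Other small RNA gene families of RNA polymerase III were set beside 7SK. U6, the spliceosomal RNA that pairs with U4, had 919 rows, of which 12 were tested, with 5 higher with pool B and 4 with pool A, where 22.0% and 18.6% of all tested genes were. The summed U6 level was 194 ± 24.5 CPM with pool A and 228 ± 37.9 CPM with pool B (SD, n = 3 each). Its most abundant row held 7.15% ± 2.90 of U6 counts with pool A and 27.4% ± 0.90 with pool B, so in neither pool did a U6 row dominate as copy 58555 did. The Metazoa_SRP rows, copies of the signal recognition particle RNA, numbered 33, with 2 tested and 0 called. Their most abundant row held 77.2% ± 6.32 and 79.4% ± 5.30 of their counts, a dominance with no such gap between pools. Y_RNA had 28 rows with 19 counts in all and 0 tested.

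Single-copy genes of the same polymerase moved in opposite directions. Rpph1, the RNA of ribonuclease P, had a log2 fold change of -2.45 ± 0.21 (SE, edgeR adjusted p = 3.11e-10), higher with pool B. RNase_MRP, the RNA of the mitochondrial RNA processing ribonuclease, had one of 0.46 ± 0.16 (SE, edgeR adjusted p = 0.0195). Its pools overlapped, at 10171, 10259 and 15361 CPM with pool A and 8964, 10387 and 9147 CPM with pool B, and A3 was the high library. The difference between these genes was not tested.

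The messenger RNAs of the 7SK particle itself did not move as 1 group. Over all tested genes, 18.6% were higher with pool A, and for pool B the share was 22.0%. Of 7 genes of the particle and P-TEFb, 2 passed as higher with pool A, 1 as higher with pool B and 4 did not pass, with a median log2 fold change of -0.05. Hexim2, an inhibitor of P-TEFb, had 159, 121 and 124 CPM with pool A and 69.2, 49.8 and 55.2 CPM with pool B, a fitted log2 fold change of 1.35 ± 0.18 (SE, edgeR adjusted p = 5.41e-07). Its paralog Hexim1 had 60.0, 69.2 and 132 CPM against 128, 135 and 177 CPM, a fitted log2 fold change of -0.63 ± 0.20 (SE, edgeR adjusted p = 0.0137). The libraries of Hexim2 were apart, while those of Hexim1 overlapped, and the Hexim1 call was lost without A1 (-0.42), A2 (-0.50) or B3 (-0.47). Without A3, the library that overlaps pool B, Hexim1 stood at -0.98 (edgeR adjusted p = 0.000183, over a range of 0.000183 to 0.126).

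Ccnt2, a cyclin T of P-TEFb, had a log2 fold change of 0.55 ± 0.18 (SE, edgeR adjusted p = 0.0172), which was lost with scaling to total counts (0.40) and without B3 (0.46). The kinase gene Cdk9 had one of -0.66 ± 0.33 (edgeR adjusted p = 0.114) and passed without B1 (-0.86, edgeR adjusted p = 0.0496, over a range of 0.0496 to 0.367), and its other cyclin gene Ccnt1 one of -0.39 ± 0.42 (adjusted p = 0.493). Mepce stood at 0.28 ± 0.27 (adjusted p = 0.448) and Larp7 at -0.05 ± 0.28 (adjusted p = 0.909), errors being SE.

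Of 14 genes that release P-TEFb from 7SK or act with it in elongation, 7 passed as higher with pool A, 3 as higher with pool B and 4 did not pass, beside the same shares of 18.6% and 22.0%. Ppm1g, a phosphatase that frees P-TEFb, had 1889, 2151 and 2248 CPM with pool A and 478, 555 and 603 CPM with pool B, a fitted log2 fold change of 2.09 ± 0.14 (SE, edgeR adjusted p = 1.33e-12). Nelfb (1.68), a subunit of the pausing factor NELF, Srsf2 (1.14), a splicing factor that binds 7SK, Supt4h1 (0.97) and Supt5h (0.75), which form the elongation factor DSIF, Ell2 (0.96) and Nelfe (0.56) were higher with pool A. Aff4 (-1.21), the scaffold of the super elongation complex, the helicase gene Ddx21 (-1.20) and Nelfa (-0.71) were higher with pool B. The called subunits of NELF thus differed in direction, while Nelfcd, at 0.06 ± 0.30 (SE), did not pass. The difference between subunits was not tested. The Nelfe call was lost with total counts (0.42) and with a replicate block (0.52). It was also lost without A2 (0.50), A3 (0.43), B1 (0.53), B2 (0.57) or B3 (0.56). The Ell2 call was lost without A1 (0.71) or B3 (0.75), and the Nelfa call without A1 (-0.65), A3 (-0.66) or B3 (-0.53).

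Genes for hnRNP and other proteins that bind 7SK had the highest median log2 fold change of the 4 lists, 1.33. Of these 6 genes, 4 were higher with pool A and 1 lower, where 18.6% and 22.0% of all tested genes were called. Hnrnpa2b1 had 1978, 2213 and 2498 CPM with pool A and 254, 211 and 210 CPM with pool B, a fitted log2 fold change of 3.45 ± 0.15 (SE, edgeR adjusted p = 2.01e-16). The helicase gene Dhx9 (2.81), Hnrnpa1 (1.75) and Hnrnpr (0.90) were also higher with pool A, with pool ranges that did not overlap. Ssb, which encodes the La protein, stood at -0.47 ± 0.18 (SE, edgeR adjusted p = 0.0327), a call lost without A1 (-0.31), B1 (-0.38) or B3 (-0.46). Syncrip, at 0.38, did not pass.

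Of 10 factors of the 7SK type of RNA polymerase III promoter, 3 passed as higher with pool B, 2 as higher with pool A and 5 did not pass. Snapc3 (1.70) and Snapc1 (0.81) encode subunits of the complex that binds the promoter's proximal element, as does Snapc4 (-1.05), which went the other way. Bdp1 (-0.83), a subunit of TFIIIB, and Zfp143 (-0.79), an activator of such promoters, were higher with pool B. The Snapc1 call was lost with total counts (0.66) and without A2 (0.77), A3 (0.79) or B3 (0.65), and the Zfp143 call without A3 (-0.65) or B3 (-0.56). Over all 4 lists, 15 of 37 genes passed as higher with pool A and 8 as higher with pool B, beside 18.6% and 22.0% of all tested genes. These lists were chosen with earlier results known, and nothing particular to them is drawn from the counts.

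**Figure D4:**
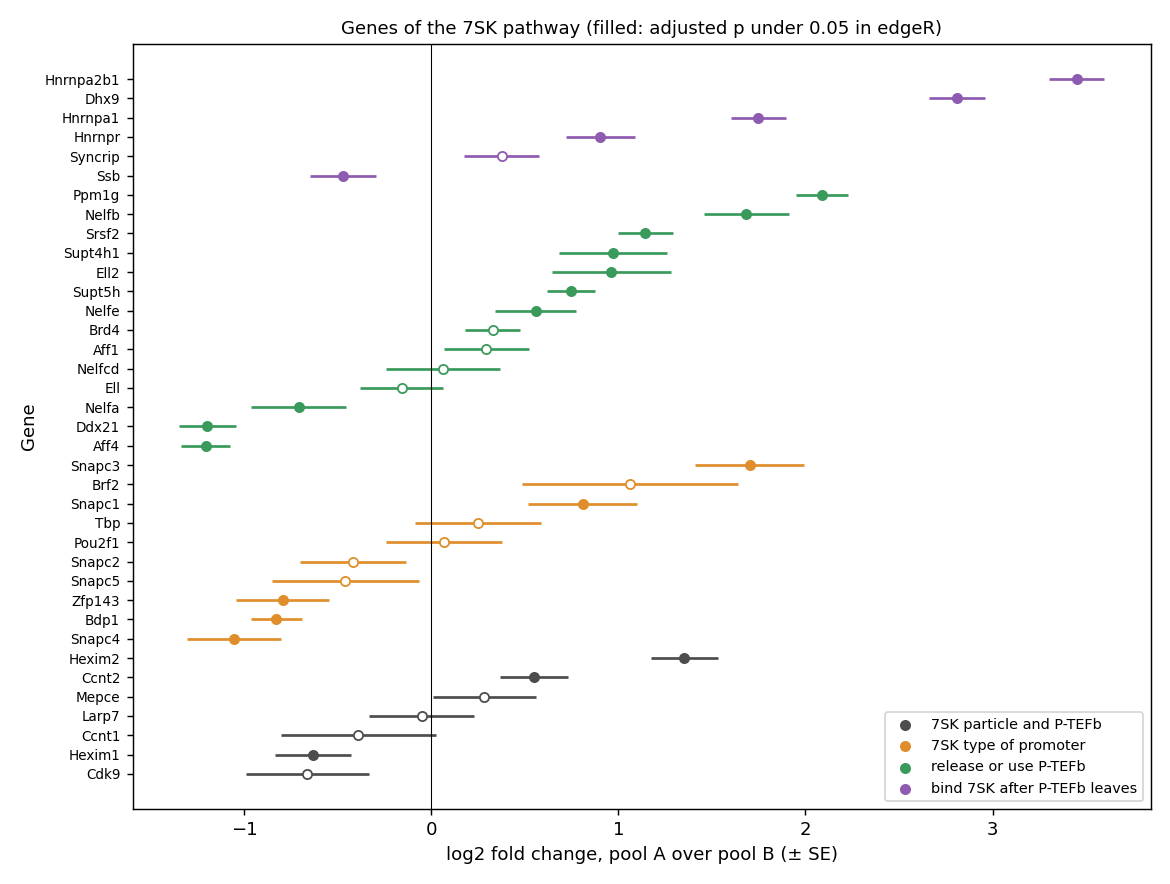
Log2 fold change (pool A over pool B, with SE) of 37 genes of the 7SK pathway in 4 lists; filled points passed an adjusted p under 0.05 in edgeR. Hexim2 (1.35) and Hexim1 (-0.63) lie on opposite sides of 0, and Hnrnpa2b1 (3.45) lies farthest from it.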

How the data were processed

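RNA pulled down from psoralen-treated GH4C1 cells was sequenced in 6 libraries. The authors deposited raw counts per gene; STAR and featureCounts are named in the submitters' processing notes, while their versions and settings, the genome build, the annotation, the strand setting and the treatment of reads that map to several copies are not given in the sources used here. The table's means per pool were not used. CPM values use total counts.

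The comparison used edgeR 4.0.16 under R 4.3.3, with TMM, its filter on low counts per group, and a quasi-likelihood fit to the 6 libraries without a block. P-values are two-sided with Benjamini-Hochberg adjustment over 11582 genes and a threshold of 0.05. Standard errors come from the fold change and the F statistic. DESeq2 1.42.0, other scalings, filters, a replicate block and leaving out each library were alternatives. Simulated counts held 188 changed genes among 11294 tested. Of these, 93.6% of genes changed 4-fold and 48.9% of those changed 2-fold were recovered, and 4.29% of calls were unchanged genes. The data had 40.6% of tested genes called, a far larger share than was changed in the simulation, so these rates may not hold for them.

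Named copies are all those past the threshold and the 5 with the most counts; of each list, members past the threshold, up to 10 by adjusted p, and the core particle genes. Copies 57547, 53752, 61134, 54744, 56622, 58274, 54280 and 57793 were named after their values were seen. So were the untested copies seen with 1 pool, Syncrip and Nelfcd. The lower bounds of those untested copies were also computed without each library of the higher pool, an alternative chosen after seeing the data. The members and lists were chosen with earlier results of these data known.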

Additional observations from a re-analysis of the deposited data

How the results depend on the processing

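The number of copies higher with pool A was 8 to 14 under every alternative and stayed within 1.5 times the 11 reported. The number higher with pool B was 5, and became 8 with no filter (118 copies tested), 1 with at least 10 counts in every library (12 tested) and 2 at an adjusted p under 0.01; leaving out a library gave 3 to 5, the lowest without A3 or B3, and 10 to 14 higher with pool A. Scaling to total counts lowered the median of all genes by 0.14 and upper-quartile scaling raised it by 0.10, and under each scaling 14 of 24 copies had positive fold changes. Replicate numbers are shared between pools, but deviations of same-numbered libraries correlated at 0.0409, -0.0195 and 0.02, so they were not taken as pairs. With a replicate block 11 copies passed as higher with pool A and 5 as higher with pool B. Among the copies and list genes that were refitted, the block ended the call of Nelfe alone. Refits of the other named genes, such as Rpph1, RNase_MRP and the neighbouring rows, were not compared. In 299 refits of single copies, 278 kept direction and call, 15 lost a call, 3 gained one and 3 changed sign: copy 57547 (0.011 without B1), copy 54280 (-0.095 without A2) and copy 57793 (0.10 without A1), none of which passed. Leaving out each library moved copy 57547 between -0.35 and 0.011, copy 54280 between -0.095 and 0.99, copy 57793 between -0.62 and 0.10, and Larp7, which changed sign without A1 or A3 (0.085), between -0.30 and 0.091.

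The summed 7SK ratio (0.47 as log2) was 0.80 without the dominant copy, and 0.35 to 0.60 when a library was left out. Over tested copies alone, copy 58555 held 58.9% with pool A. With at least 5 counts required, 40, 34 and 40 copies were detected in A1 to A3 and 40, 29 and 31 in B1 to B3; with at least 10, these were 26, 19 and 28 and 26, 16 and 22.

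With total counts, 1 gene of the 7SK particle list and 1 promoter factor were higher with pool A. Leaving out a library gave 1 to 2 genes of the particle list higher with pool A and 0 to 2 the other way. It gave 0 to 1 of the hnRNP and other binding proteins with pool B, and 1 to 3 promoter factors with pool A. Over the particle genes and the hnRNP and other binding proteins together, it gave 0 to 2 with pool B. A fit with the copies other than the dominant one summed into a single row was not run, since a score over members is not tested. Depth limits the sparse copies, whose totals over 6 libraries were 54 to 290 counts.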
